A study of Mus musculus with 30 samples.

Results

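10 genes of the RGS family, the regulators of G-protein signalling, were followed in neurons of the nucleus accumbens of female mice. They were chosen by name, as Rgs2, Rgs4, Rgs6, Rgs7, Rgs8, Rgs9, Rgs10, Rgs12, Rgs14 and Rgs16, and all 10 were found among the 55335 genes counted. Each passed the filter on low counts, so none of the 10 is missing from the tests. The study used D1-Cre-RT and A2A-Cre-RT females, in which Cre is driven from the dopamine D1 receptor or adenosine A2A receptor gene and RiboTag (RT) puts an HA tag on the ribosomes of the Cre cells. These lines mark the medium spiny neurons of the direct pathway (here D1) and of the indirect pathway (here D2). Stressed females underwent CWDS (chronic witness defeat stress), watching another mouse being defeated, and were then classed as Resilient or Susceptible by their social interaction score. Control females completed the set of 6 groups: D1 Control, D1 Resilient, D1 Susceptible, D2 Control, D2 Resilient and D2 Susceptible, with 5 libraries each. Every group carries the RiboTag allele with 1 of the 2 Cre drivers. Stressed mice were placed in a group after their behaviour was scored. Each library holds polyribosomal RNA pooled from 4 mice with similar social interaction ratios, taken 24 h after the interaction test. The pools count as the replicates, and p-values measure the spread between pools. No ages are given by these sources.

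RGS proteins share a domain that speeds GTP hydrolysis on G protein alpha subunits and so ends the signal of a receptor sooner. The R4 members (here Rgs2, Rgs4, Rgs8 and Rgs16) are small proteins with little beyond that domain, and Rgs2 stands apart from the others by its preference for the Gq alpha subunit. The R7 members (Rgs6, Rgs7 and Rgs9) act on Gi/o and are held stable by the G beta 5 subunit, and a brain splice form of Rgs9 is abundant in striatum, where it limits dopamine and opioid receptor signals. The R12 members are Rgs10, a short protein also known from microglia, and the large proteins Rgs12 and Rgs14, which carry a GoLoco motif that holds Gi alpha in its GDP-bound form.

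Of the 10 genes, 5 lie on chromosome 1, and Rgs8 and Rgs16 are neighbours there on the same strand, 40025 bp apart. Promoter sequences from RefSeq on GRCm38.p6 were matched for 9 of the 10 genes. Those of Rgs12 and Rgs16, whose levels were higher in D1 libraries, and of Rgs10, whose level was higher in D2 libraries, are shown as the 250 bases before the annotated start (for Rgs12, the first of its 2 starts), at chr5:34949198-34949447 (+ strand), chr1:153740103-153740352 (+ strand) and chr7:128418173-128418422 (- strand). Capitals mark GC boxes, the letters GGGCGG or their reverse complement CCGCCC, with overlapping matches counted.
Rgs12: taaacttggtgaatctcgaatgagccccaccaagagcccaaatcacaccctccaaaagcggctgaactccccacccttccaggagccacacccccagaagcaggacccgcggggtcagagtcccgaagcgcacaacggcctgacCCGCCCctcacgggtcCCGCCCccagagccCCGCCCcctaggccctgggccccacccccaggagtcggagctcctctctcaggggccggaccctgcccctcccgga
Rgs16: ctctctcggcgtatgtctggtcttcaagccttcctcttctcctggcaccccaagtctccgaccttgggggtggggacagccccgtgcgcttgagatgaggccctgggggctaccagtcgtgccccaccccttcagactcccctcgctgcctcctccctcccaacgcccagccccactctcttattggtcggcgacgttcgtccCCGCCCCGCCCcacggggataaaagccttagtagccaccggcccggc
Rgs10: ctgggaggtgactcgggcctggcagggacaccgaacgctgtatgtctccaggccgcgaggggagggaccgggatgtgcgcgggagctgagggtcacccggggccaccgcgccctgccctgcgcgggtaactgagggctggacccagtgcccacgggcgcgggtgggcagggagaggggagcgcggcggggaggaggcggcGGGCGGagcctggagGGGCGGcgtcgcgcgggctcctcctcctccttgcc
The Rgs12 stretch holds 3 matches, that of Rgs16 holds 2 that overlap, and that of Rgs10 holds 2, the last ending 30 bases before the start. With the first 50 transcribed bases included, a match occurred in 6 of the 12 windows of the 9 members (some have more than 1 start), and in 35.7% of all 32851 promoter windows of that length. The cyclic AMP response half-site TGACG, searched on both strands, occurred in 4 of the 12 member windows and in 20.8% of all windows. GC boxes thus stood before genes of either direction, though not before Rgs6, which was also higher in D1. A match describes the letters only.

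Levels are given in CPM, read counts scaled to library size, with library sizes adjusted by the trimmed mean of M values (TMM). Library sizes ran from 28996168 to 65882152 counts, and the members had between 18 and 37622 counts in a library, and 3 counts would equal at most 0.304 CPM. In D1 Control against D2 Control libraries, 6 of 7 D1 markers were higher in D1 and 5 of 5 D2 markers were higher in D2 by edgeR. By summed markers, 1 library went against its label in part: D2 Resilient replicate 5 had D1 markers at 1837 CPM, inside the range of the D1 libraries (1712 to 2578 CPM), where the other D2 Resilient libraries had 370 to 479 CPM. Its D2 markers stood at 4867 CPM against 9792 to 12489 CPM in the others of its group, above the 2771 CPM at which the D1 libraries ended. D2 Control replicate 5 had D1 markers at 1231 CPM, where the other D2 Control libraries had 336 to 707 CPM. Besides these, 3 libraries stood apart by quality. D2 Susceptible replicates 1 and 2 had 15822 and 16525 genes detected where the other 28 had at least 19440, and D1 Susceptible replicate 1 had the fewest counts, 41.2% of its reads outside annotated genes and a TMM factor of 0.340, where the others had at least 0.957. In bulk samples, fewer cells of a type and less RNA per cell cannot be told apart. Of the genes that overlap a member's exons on the other strand, the widest overlaps were Gm28513 with Rgs16 (236 bp) and Gm43791 with Rgs12 (467 bp). As the strand setting is not given, their reads cannot be told apart, though the overlapping genes had at most 4 and 13 counts in any library.

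Per exon length, Rgs4 was the most abundant member in all 6 groups. Its level over the 30 libraries was 161 ± 19.4 CPM per kb (SD, n = 30), or 40.6% of the members' summed level. Rgs2 followed at 74.6 ± 9.17 CPM per kb, and Rgs9, the striatal R7 member, at 63.6 ± 8.82 CPM per kb. A middle tier held Rgs10 (26.7 ± 6.44), Rgs14 (25.9 ± 4.95) and Rgs8 (25.1 ± 3.31 CPM per kb). The lower tier was formed by Rgs16 (6.75 ± 1.47), Rgs7 (6.70 ± 1.22), Rgs12 (5.00 ± 1.07) and, last in every group, Rgs6 (1.37 ± 0.423 CPM per kb).

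Between tiers the libraries of a group did not overlap, and within the middle and lower tiers each pair of neighbours in the order did overlap, apart from Rgs6, which lay below Rgs12 without overlap in all 6 groups. Rgs2 and Rgs9 overlapped in D1 Resilient, D1 Susceptible, D2 Control and D2 Susceptible libraries and were separate in the other two groups. With the longest transcript as the length in place of all exons, Rgs9 came before Rgs2, and Rgs7 and Rgs12 before Rgs16. The R4 subfamily thus holds the most abundant member and one of the scarce ones, while R7 holds Rgs9, above the middle tier, and Rgs6, the scarcest member.

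**Figure D1:**
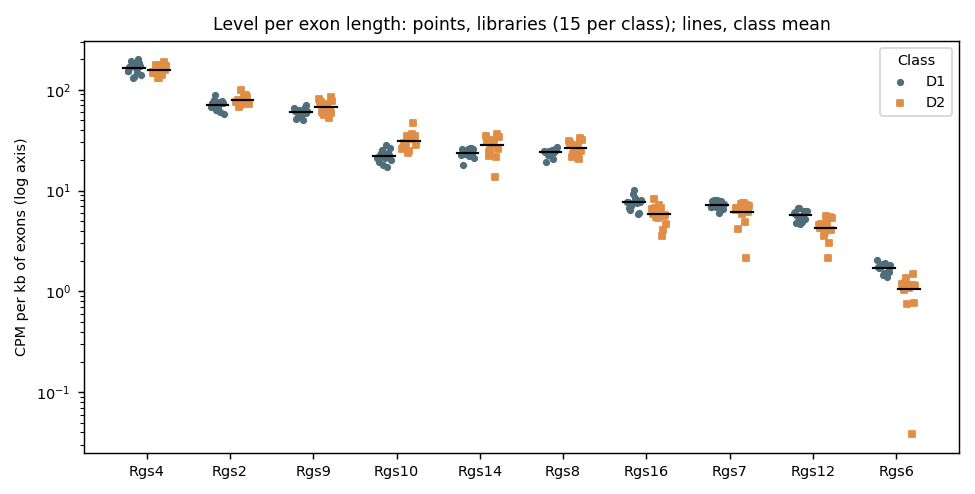
Level of each RGS gene in CPM per kb of exons (log axis) in the 15 D1 libraries (circles) and the 15 D2 libraries (squares), ordered by the mean of all 30, with lines at class means. Rgs4 is highest at a mean of 161 and Rgs6 lowest at 1.37, and the single low Rgs6 square is D2 Susceptible replicate 1.

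The first comparison asked how the 2 neuron classes differ in these genes. Averaged over the 3 stress groups, 7 of the 10 members differed between D1 and D2 libraries by edgeR, where 29.3% of the 19368 genes tested did. Higher in D1 were Rgs6 of the R7 subfamily, Rgs12 of R12 and Rgs16 of R4. Higher in D2 were Rgs10 and Rgs14 of R12, Rgs9 of R7 and Rgs2 of R4. Of these, 3 calls (Rgs2, Rgs9 and Rgs14) were lost in most of the alternatives. The median difference of the 10 members was -0.04 on the log2 scale against 0.00 for all genes, and their median absolute difference was 0.23 against 0.24.

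Rgs10 showed the smallest adjusted p of the members in this average. In D1 Control libraries 1 to 5 its level was 35.8, 37.2, 33.0, 38.8 and 40.7 CPM, and in D2 Control libraries it was 43.8, 45.6, 50.4, 49.7 and 50.2 CPM. All D2 Control libraries were above all D1 Control libraries. In Resilient mice the D1 libraries read 42.9, 30.8, 36.7, 35.8 and 48.8 CPM, and the D2 libraries 59.3, 40.7, 41.9, 55.2 and 55.3 CPM, and here the classes overlapped. D1 Susceptible libraries had 29.3, 40.6, 38.2, 45.2 and 34.6 CPM and D2 Susceptible libraries 62.1, 79.3, 57.7, 59.9 and 48.8 CPM, again without overlap. Averaged over stress groups, Rgs10 was 1.40-fold higher in D2 (log2 D1 minus D2 -0.48, SE 0.0745, edgeR adjusted p = 7.21e-06). Without D2 Susceptible replicates 1 and 2 the difference was -0.41 with adjusted p = 1.67e-05.

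Rgs10 is also known as a microglial gene, and markers of other cells differed between the classes. Of the 7 microglial markers, 6 were tested and 4 of those (Cx3cr1, C1qa, C1qb and Csf1r) were higher in D2 in the same average. The 7 summed to between 8.20 and 40.1 CPM in D1 Control libraries and between 13.1 and 42.2 CPM in D2 Control libraries, and Trem2 was at 0 in at least 1 library of each group. In Control libraries none of the 6 was called by edgeR. All 6 oligodendrocyte, 6 astrocyte, 5 endothelial and 6 mural markers were higher in D2 in the average. All 4 cortical projection neuron markers and 4 of 6 interneuron markers were higher in D1, and 1 interneuron marker was higher in D2. The part of these cells in the Rgs differences was not tested.

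Rgs16, a small R4 member known as an inducible gene, was the D1-high member with the smallest adjusted p in the average. Its D1 Control libraries had 18.1, 18.1, 15.8, 15.2 and 16.4 CPM against 15.3, 13.7, 19.1, 15.6 and 12.7 CPM in D2 Control, and the 2 classes overlapped. In Resilient mice the D1 libraries had 17.6, 21.9, 23.8, 19.96 and 19.0 CPM, all above the D2 libraries at 15.6, 12.6, 16.9, 13.2 and 15.8 CPM. In Susceptible mice the D1 libraries had 17.6, 13.7, 13.9, 17.9 and 19.0 CPM, all above the D2 libraries at 8.35, 9.51, 13.03, 13.3 and 11.03 CPM. The average difference was 1.31-fold (log2 0.39, SE 0.0785, edgeR adjusted p = 0.000308), and 0.35 with adjusted p = 0.00028 without D2 Susceptible replicates 1 and 2.

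Rgs12, a large R12 protein with several interaction domains, was higher in D1 by 1.33-fold in the average (log2 0.41, SE 0.0958, edgeR adjusted p = 0.00145). D1 Control libraries had 50.8, 52.1, 40.1, 47.2 and 56.5 CPM, and D2 Control libraries had 38.8, 36.4, 39.4, 36.5 and 39.0 CPM, with no overlap. D1 Resilient libraries (57.4, 39.8, 44.6, 47.0 and 41.2 CPM) overlapped with D2 Resilient ones (30.1, 33.4, 35.9, 47.2 and 40.4 CPM). In Susceptible mice D1 libraries read 46.6, 53.6, 44.8, 52.0 and 52.7 CPM and D2 libraries 18.1, 25.4, 46.8, 34.3 and 45.4 CPM. The lowest of the 30 values for Rgs12 belonged to D2 Susceptible replicates 1 and 2, and without those libraries the average difference was 0.33 with adjusted p = 0.000299.

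Rgs6, the scarcest member, had the widest class difference, 1.62-fold higher in D1 in the average (log2 0.70, SE 0.215, edgeR adjusted p = 0.0152). D1 Control libraries read 20.7, 17.6, 17.2, 17.6 and 18.1 CPM and D2 Control libraries 11.8, 11.7, 10.4, 12.2 and 13.7 CPM, with a gap between them. D1 Resilient libraries read 18.6, 14.4, 15.3, 19.3 and 15.02 CPM, all above the D2 Resilient libraries at 7.57, 10.8, 10.9, 11.3 and 11.6 CPM. D1 Susceptible libraries had 14.0, 15.5, 17.3, 15.6 and 18.2 CPM, and D2 Susceptible libraries had 0.387, 14.8, 7.63, 11.6 and 11.4 CPM. The value of 0.387 CPM in D2 Susceptible replicate 1 rests on 18 counts. Without D2 Susceptible replicates 1 and 2 the average difference was 0.67 with adjusted p = 2.14e-08.

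The other 3 called members differed by less. Rgs14 was higher in D2 (log2 D1 minus D2 -0.24, SE 0.092, adjusted p = 0.0443), as were Rgs9 (-0.17, SE 0.0636, adjusted p = 0.0412) and Rgs2 (-0.15, SE 0.0552, adjusted p = 0.0378). These 3 calls depended on the setting, and leaving out most single libraries ended them. With each library left out in turn, Rgs2 was called in 6 of 30 fits, Rgs9 in 4 and Rgs14 in 5. Without D2 Resilient replicate 5 alone, for example, Rgs14 (-0.22, adjusted p = 0.0882), Rgs9 (-0.15, adjusted p = 0.0825) and Rgs2 (-0.13, adjusted p = 0.0945) were not called, and without D2 Control replicate 5 alone, Rgs14 (adjusted p = 0.051) and Rgs2 (adjusted p = 0.0669) were not. With D2 Resilient replicate 5 and the 3 libraries that stood apart by quality all left out, Rgs14 (-0.34, adjusted p = 0.000232) and Rgs9 (-0.22, adjusted p = 0.00813) were called, Rgs2 was not (-0.11, adjusted p = 0.121) and Rgs8 was (-0.20, adjusted p = 0.0115). Of the 38 alternative analyses run on this average, Rgs2 was called in 9, Rgs9 in 10 and Rgs14 in 11, whereas Rgs6, Rgs10, Rgs12 and Rgs16 were called in all 38. Rgs4 (0.07, SE 0.0647), Rgs7 (0.22, SE 0.106) and Rgs8 (-0.15, SE 0.0652) were not called, at adjusted p = 0.439, 0.116 and 0.0939.

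**Figure D2:**
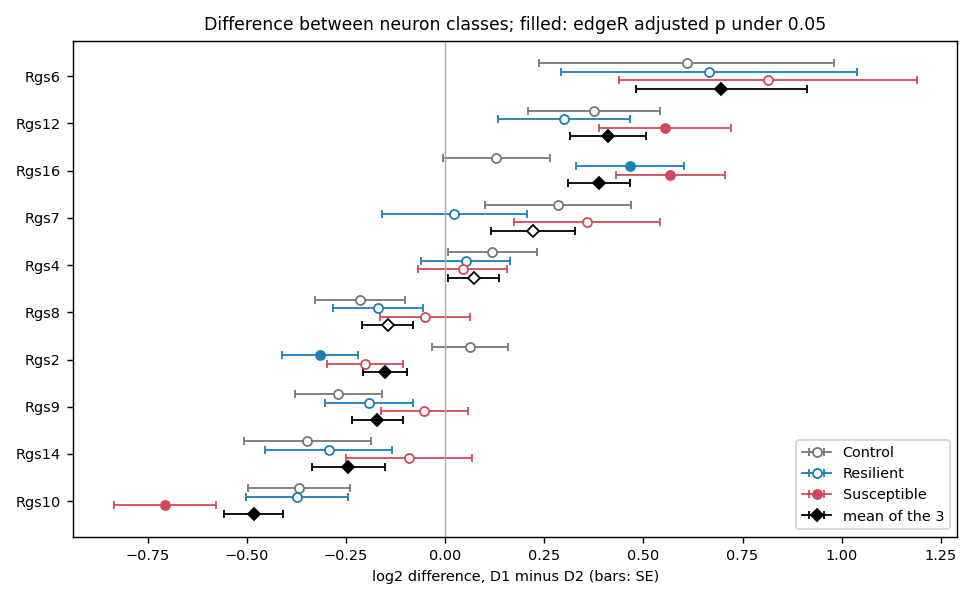
Difference between D1 and D2 libraries of each RGS gene (log2, bars are SE) within Control, Resilient and Susceptible mice and averaged over the 3, with filled symbols for edgeR adjusted p under 0.05. The black diamonds of Rgs6, Rgs12 and Rgs16 are filled at positive values, and those of Rgs2, Rgs9, Rgs14 and Rgs10 at negative values.

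Within Control mice alone no member passed the threshold, where 8.3% of all genes did (1608 genes, 679 higher in D1 and 929 higher in D2). At an unadjusted p under 0.05 there were 4 members (Rgs9, Rgs10, Rgs12 and Rgs14), beside 3870 of all 19368 genes. The 5 D1 and 5 D2 libraries did not overlap for Rgs6, Rgs7, Rgs10 and Rgs12, and the share of all genes without overlap was not computed. The edgeR fit shares 1 estimate of spread over the 6 groups. When D2 Susceptible replicates 1 and 2 were left out of it, Rgs6 (log2 0.62, adjusted p = 0.000561), Rgs12 (0.39, adjusted p = 0.0137), Rgs14 (-0.33, adjusted p = 0.0296) and Rgs10 (-0.36, adjusted p = 0.0311) were called in Control mice. Leaving out D2 Susceptible replicate 1 alone gave a call for Rgs6 (0.62, adjusted p = 0.00249), and leaving out D1 Susceptible replicate 1 gave one for Rgs10 (-0.38, adjusted p = 0.0492). DESeq2 called 1 member, Rgs10. The share of all genes called in these other fits is not given here.

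Among Resilient mice 2 members passed, Rgs16 higher in D1 (log2 0.47, SE 0.136, edgeR adjusted p = 0.0301) and Rgs2 higher in D2 (-0.32, SE 0.0957, adjusted p = 0.0393), against 6.65% of all genes. Rgs2 libraries read 226, 230, 230, 246 and 275 CPM in D1 Resilient and 359, 276, 263, 286 and 320 CPM in D2 Resilient, and 4 of the 5 D2 libraries were above all D1 ones. The Rgs2 call held in 12 of 38 alternatives and was lost, among others, without D2 Resilient replicate 5 (-0.27, adjusted p = 0.114) or D2 Control replicate 5 (-0.30, adjusted p = 0.062). The Rgs16 call was lost without D1 Resilient replicate 2 (0.46, adjusted p = 0.0642), D1 Resilient replicate 3 (0.43, adjusted p = 0.0892), D2 Resilient replicate 2 (0.43, adjusted p = 0.083) or D2 Resilient replicate 4 (0.45, adjusted p = 0.0723). Rgs6 passed in Resilient mice without D2 Susceptible replicate 1 (0.68, adjusted p = 0.000939), and Rgs10 without D1 Resilient replicate 5 (-0.45, adjusted p = 0.0362). In Susceptible mice 3 members passed, against 23.9% of all genes: Rgs10 (-0.71, SE 0.130, adjusted p = 0.000253), Rgs16 (0.57, SE 0.137, adjusted p = 0.00346) and Rgs12 (0.55, SE 0.166, adjusted p = 0.0156). Without D2 Susceptible replicates 1 and 2 Rgs10 was at -0.53 (adjusted p = 0.00614), Rgs16 at 0.42 (adjusted p = 0.047), and Rgs12 was no longer called at 0.27 (adjusted p = 0.197). The Rgs16 call was also lost with voom (0.31, adjusted p = 0.131), with only the groups compared (0.57, adjusted p = 0.0781) and without the 4 libraries (0.38, adjusted p = 0.0911), as was that of Rgs12 (adjusted p = 0.264, 0.152 and 0.218). Rgs6 passed in Susceptible mice without D2 Susceptible replicate 1 (0.53, adjusted p = 0.0125), and Rgs7 without D2 Susceptible replicate 3 (0.50, adjusted p = 0.0439).

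**Figure D3:**
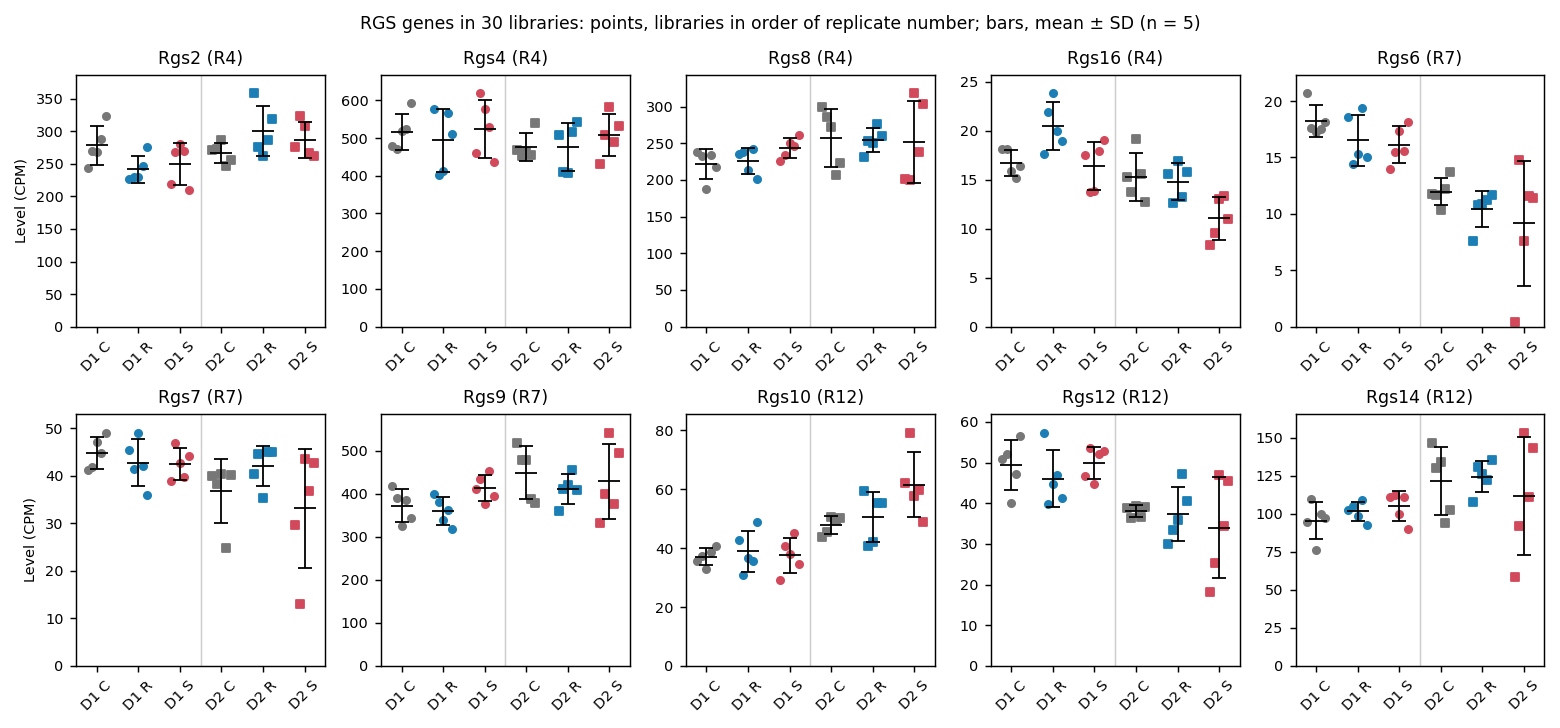
CPM of the 10 RGS genes in each of 30 libraries (C Control, R Resilient, S Susceptible), points from left to right in order of replicate number, with mean ± SD of 5 libraries as bars. The lowest points of Rgs7, Rgs12 and Rgs14 in D2 Susceptible are replicates 1 and 2, that of Rgs6 is replicate 1, and Rgs16 reaches its lowest values, 8.35 and 9.51 CPM, in the same libraries.

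The second question was whether these genes followed stress or its behavioural outcome within a class. By edgeR no member changed in any of the 6 stress comparisons. In D1 neurons the background was 0% of all genes for Susceptible against Control, 0% for Resilient against Control and 0% for Susceptible against Resilient, with 465, 503 and 675 genes at an unadjusted p under 0.05. For D2 neurons it was 0.00516% (1 gene) for Susceptible against Control, 0% for Resilient against Control and 0.0516% (10 genes) for Susceptible against Resilient. At an unadjusted p under 0.05 these 3 comparisons had 3038, 814 and 3693 genes (15.7%, 4.20% and 19.1% of all genes). DESeq2 called none of the members in these 6 comparisons either. The 3 comparisons within a class share samples, so their values are given side by side and not as separate evidence.

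Among the R4 genes, Rgs16 had the lowest mean of its 6 groups in D2 Susceptible libraries, at 11.05 ± 2.16 CPM (SD, n = 5) against 15.3 ± 2.44 in D2 Control and 14.8 ± 1.85 in D2 Resilient. The D2 Susceptible libraries overlapped with both other D2 groups. The difference was -0.47 on the log2 scale against Control (SE 0.136, edgeR adjusted p = 0.158) and -0.42 against Resilient (SE 0.136, adjusted p = 0.0977). Without D2 Susceptible replicate 3 both passed, at -0.54 (adjusted p = 0.0395) and -0.49 (adjusted p = 0.0308). Without D2 Susceptible replicates 1 and 2 the values were -0.30 and -0.25 (adjusted p = 0.834 and 0.945). In D1 neurons Rgs16 was at 16.7 ± 1.35 CPM in Control, 20.5 ± 2.43 in Resilient and 16.4 ± 2.44 in Susceptible libraries. Those D1 differences were 0.29 for Resilient against Control and -0.32 for Susceptible against Resilient, both with adjusted p = 1.

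Rgs2, the Gq-directed R4 member, read 279 ± 29.7 CPM in D1 Control, 242 ± 20.5 in D1 Resilient and 250 ± 32.4 in D1 Susceptible libraries. In D2 neurons it read 267 ± 15.95 in Control, 301 ± 38.7 in Resilient and 287 ± 27.4 CPM in Susceptible libraries. Means of the stressed groups were below Control in D1 and above Control in D2, with overlapping libraries throughout. For Resilient against Control the log2 difference was -0.21 in D1 (SE 0.0956, edgeR adjusted p = 1) and 0.17 in D2 (SE 0.0956, adjusted p = 1). Only limma voom with quality weights, of the alternatives, called the D1 difference (-0.29, adjusted p = 0.0215).

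Rgs4 and Rgs8 stayed within narrow bounds. Rgs4 differences ran from -0.06 to 0.09 over the 6 stress comparisons, and their 95% intervals lay between -0.28 and 0.31. Those of Rgs8 ran from -0.03 to 0.14, with intervals between -0.25 and 0.36. With 5 libraries a group, changes of a size inside these intervals were not excluded.

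Of the R7 genes, Rgs9 had differences from -0.13 to 0.20 with intervals between -0.34 and 0.42. Rgs7, a Gi/o-directed R7 member, read 33.2 ± 12.6 CPM in D2 Susceptible against 42.1 ± 4.22 CPM in D2 Resilient libraries (log2 -0.34, SE 0.184, edgeR adjusted p = 0.308). The D2 Susceptible libraries had 29.7, 13.02, 43.6, 36.8 and 42.6 CPM, so that replicates 1 and 2 were the lowest, and without them the difference was -0.04. Rgs6 carried the widest intervals, reaching -1.11 in D2 Susceptible against Control, where its difference was -0.38 (SE 0.372, adjusted p = 0.637). That value rests on D2 Susceptible replicate 1 and its 18 counts: without it the difference was -0.08 (adjusted p = 0.9), and without replicates 1 and 2 it was -0.24 (adjusted p = 0.989).

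Of the R12 genes, Rgs10 read 61.6 ± 11.1 CPM in D2 Susceptible libraries against 47.9 ± 3.06 in D2 Control and 50.5 ± 8.56 CPM in D2 Resilient. The log2 differences were 0.36 (SE 0.129, edgeR adjusted p = 0.194) and 0.29 (SE 0.129, adjusted p = 0.22). Without D2 Susceptible replicates 1 and 2 they were 0.20 and 0.13. None of the microglial markers tested was called in these D2 comparisons, where only 1 and 10 of all 19368 genes were. The 7 markers summed to between 20.4 and 29.4 CPM in D2 Susceptible and between 13.1 and 42.2 CPM in D2 Control libraries. The part of microglia in these Rgs10 differences was not tested. Rgs12 and Rgs14 differences in D2 Susceptible against Control were -0.16 and -0.12, with adjusted p = 0.656 and 0.738. Without D2 Susceptible replicates 1 and 2 both turned direction, to 0.14 for Rgs12 and 0.15 for Rgs14.

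**Figure D4:**
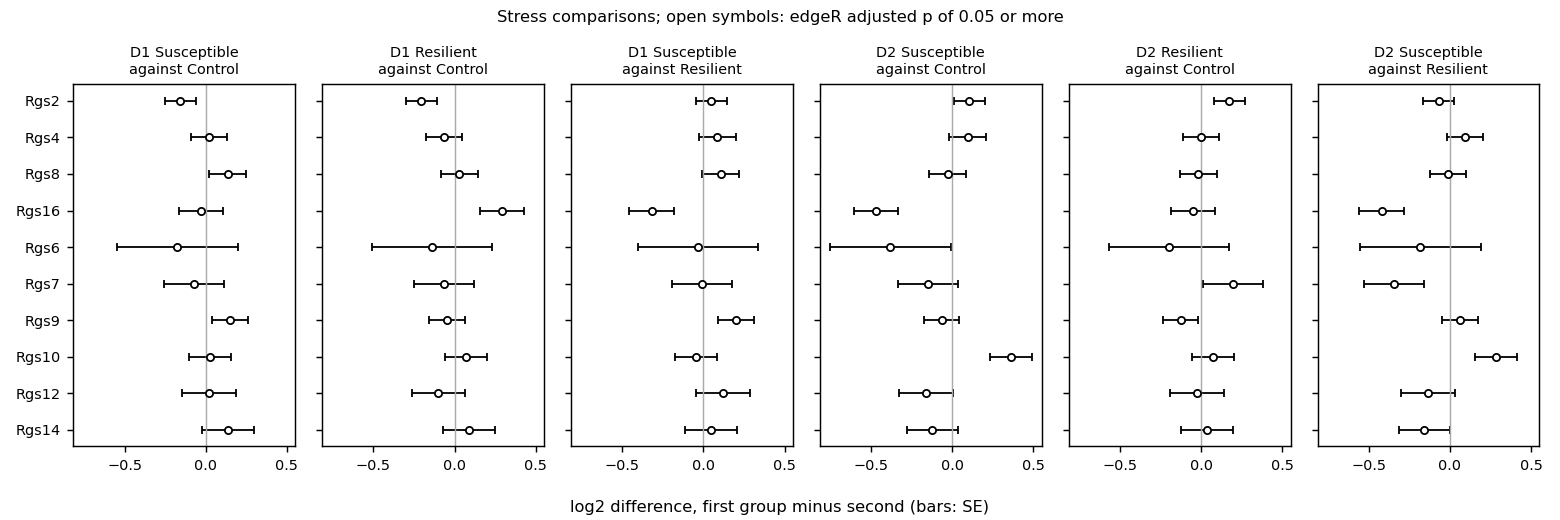
Log2 difference of each RGS gene in the 6 stress comparisons (first group minus second, bars are SE). All symbols are open, as no adjusted p was under 0.05, and the points farthest from 0 are Rgs16 at -0.47 and -0.42 and Rgs6 at -0.38 in D2 Susceptible libraries.

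Whether the stress difference itself differed between classes was tested as the D1 change minus the D2 change. No member passed by edgeR, and none of all genes did: 0% for Susceptible against Control, 0% for Resilient against Control and 0% for Susceptible against Resilient, with 1509, 967 and 2404 genes at an unadjusted p under 0.05. The member values with the smallest p were Rgs2 for Resilient against Control (log2 -0.38, SE 0.135, adjusted p = 0.85) and Rgs16 for Susceptible against Control (0.44, SE 0.192, adjusted p = 0.637). Rgs10 stood at -0.34 (SE 0.182, adjusted p = 0.652) for Susceptible against Control.

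RGS proteins act on G proteins and with partners, so lists of these genes were read in the same fits. Of 81 listed genes tested, 45 differed between the classes in the average of stress groups (28 higher in D1, 17 higher in D2) and 21 in Control mice (13 higher in D1, 8 higher in D2). The shares of all genes are the 29.3% and 8.3% above, and in the average 2669 of the 19368 genes were higher in D1 and 3010 higher in D2. Counted among the 45 and the 21 are Drd1 (average log2 2.33) and Adora2a (-2.73), the genes from which Cre is driven. Drd2 (-2.41), a marker of the D2 class, is counted too. Calls for these genes were set by the choice of mouse lines. As the lists were also chosen with earlier results of these data known, whether they differ more often than other genes was not tested. No listed gene was called in any of the 6 stress comparisons. Gnb5 encodes G beta 5, the obligate partner of R7 proteins. Its libraries ranged from 306 to 350 CPM in D1 Control and from 390 to 537 CPM in D2 Control, without overlap, and it was higher in D2 (Control log2 -0.56, SE 0.0762, edgeR adjusted p = 8.62e-06). In the average, Rgs7bp, a membrane anchor of R7 complexes, was at -0.46 (adjusted p = 0.0018) and the orphan receptor Gpr158, which binds R7 proteins, at -0.14 (adjusted p = 0.0458). With Gpr158 close to the threshold, 3 of the 4 R7 partners tested were higher in D2. Of the R7 genes themselves, Rgs6 was higher in D1, and the call of Rgs9 toward D2 held in 10 of 38 alternatives.

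Among 5 Gi/o/z alpha subunits, the substrates of most of these RGS proteins, Gnai1 was higher in D1 (270 ± 38.7 CPM in D1 Control and 158 ± 22.9 in D2 Control, average log2 0.74, edgeR adjusted p = 2.85e-10). Gnai2 (-0.23, adjusted p = 0.000329) and Gnao1 (-0.19, adjusted p = 0.00475) were higher in D2, and the other two were not called. In the average none of the 4 Gs/olf and Gq/11 alpha subunits and neither of the 2 G12/13 alpha subunits was called. Gnaq, the Gq alpha subunit on which Rgs2 acts, was at -0.21 in the average (adjusted p = 0.128), and was called in Susceptible mice at -0.66 (adjusted p = 0.00983). In Control mice Gnaq was at -0.10 (edgeR adjusted p = 0.855). The listed genes were not read in fits without D2 Susceptible replicates 1 and 2.

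Of 3 G beta subunits tested beside Gnb5, Gnb4 was higher in D1 (100 ± 11.6 CPM against 42.4 ± 11.9 CPM in Control libraries, average log2 1.31, edgeR adjusted p = 7.44e-11) and Gnb2 higher in D2 (-0.21, adjusted p = 0.00345). Of 10 G gamma subunits, 3 were higher in D1, among them Gng2 (1.16, adjusted p = 1.65e-09) and Gng4 (0.58, adjusted p = 0.00147), and 2 were higher in D2, Gng11 (-2.55, adjusted p = 4.72e-10) and Gng5 (-1.45, adjusted p = 4.08e-06). Gng11 and Gng5 were scarce, at 7.24 ± 2.40 and 5.70 ± 1.54 CPM in D2 Control libraries, and the endothelial and mural markers above were higher in the same libraries.

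Of 12 effectors of G proteins, 8 were higher in D1 and 1 higher in D2, beside 2669 and 3010 of all 19368 genes. Examples are Adcy2, an adenylyl cyclase (1.31, edgeR adjusted p = 3.61e-13), the potassium channel subunits Kcnj9 (0.66, adjusted p = 5.67e-11) and Kcnj3 (0.66, adjusted p = 2.34e-06), and the phospholipase Plcb4 (0.84, adjusted p = 1.52e-06). Of 12 other modulators, 6 were higher in D1, including the receptor kinases Grk3 (0.79, adjusted p = 6.45e-08), Grk2 (0.47, adjusted p = 7.04e-05), Grk5 (0.34, adjusted p = 0.000691) and Grk6 (0.32, adjusted p = 0.023), and none was higher in D2.

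**Figure D5:**
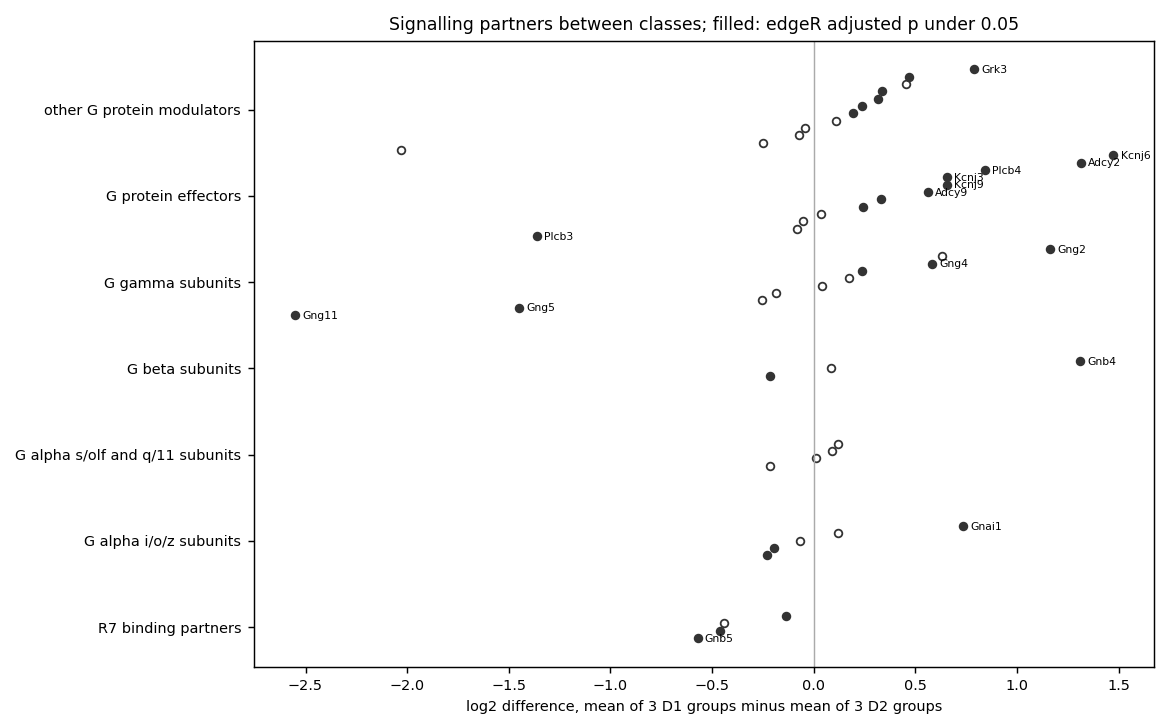
Average log2 difference between D1 and D2 libraries of genes that RGS proteins act on or with, 1 point a gene in 7 lists, filled where edgeR adjusted p was under 0.05 and named where the difference was also beyond 0.5. Points at positive values are higher in D1, such as Gnb4 at 1.31, and the 3 filled R7 partners are all at negative values.

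Of 13 receptors that couple to Gi/o, 6 were higher in D1 and 3 higher in D2, with the cannabinoid receptor Cnr1 (1.36, edgeR adjusted p = 1.4e-11), the GABA-B subunit Gabbr2 (0.71, adjusted p = 5.43e-10) and the kappa opioid receptor Oprk1 (0.34, adjusted p = 0.00101) on the D1 side, and Drd2 (-2.41, adjusted p = 2.35e-12), a marker of the D2 class, on the other. Among Gq-coupled receptors, the serotonin receptors Htr2a (-0.35, edgeR adjusted p = 0.00356) and Htr2c (-0.21, adjusted p = 0.0499) were higher in D2.

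The RGS genes outside the 10 differed in other ways. Rgs5, known from pericytes, was higher in D2 (average log2 D1 minus D2 -3.09, edgeR adjusted p = 2.77e-15), at 9.26 ± 2.43 CPM in D1 Control and 77.4 ± 16.7 in D2 Control libraries. All 6 mural markers were higher in D2 in the same average, and they summed to between 4.47 and 16.3 CPM in D1 Control and between 92.0 and 164.8 CPM in D2 Control libraries. The part of mural cells in this value was not tested. Rgs19, an RZ member, was at 0.53 (adjusted p = 0.0119), while Rgs17 at -0.34 (adjusted p = 0.135) and Rgs11, the fourth R7 gene, at -0.14 (adjusted p = 0.549) were not called in the average. Rgs13 (0.294 ± 0.154 CPM in D1 Control) and Rgs22 (0.202 ± 0.199 CPM, average log2 2.44, adjusted p = 0.0468) were near the limit of detection.

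Genes with a like profile were sought by the root mean square difference of centred log2 CPM over the 30 libraries. The rule covered members called in Control mice, of which there were none, so the profiles of Rgs10 and Rgs16 were taken after their values had been seen. Nearest to Rgs10 were Bhlhe41 (0.157), Ctnna1 (0.161) and Syndig1l (0.166), where the Rgs10 profile itself had a root mean square of 0.319. Bhlhe41 read 94.0 ± 5.46 CPM in D1 Control, 129 ± 7.82 in D2 Control and 154 ± 16.6 CPM in D2 Susceptible libraries. Nearest to Rgs16 were Tmem59l (0.182), Sgsm1 (0.184) and Pnkd (0.188), with 0.306 for the Rgs16 profile itself. Tmem59l read 249 ± 14.2 CPM in D1 Control, 214 ± 9.97 in D2 Control and 165 ± 37.3 CPM in D2 Susceptible libraries.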

How the data were processed

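Polyribosomal RNA was immunoprecipitated through the HA tag and made into SMART-Seq v4 libraries from 10 ng of RNA, per the labels' protocols. The deposited values are raw counts of reads per gene; HISAT2, HTSeq and GRCm38/mm10 are named in the submitters' processing notes, with versions, annotation release and strand handling not given in the sources used here. The 5 summary lines of unassigned reads (10.1% to 53.3% of a library) were left out. Symbols and coordinates come from GENCODE M21 on GRCm38 (55154 of 55335 genes matched).

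Genes passing filterByExpr (minimum count 10, minimum total 15; 19368 genes) were tested, after TMM scaling, with edgeR 4.0.16 (quasi-likelihood F test, robust) in R 4.3.3, in 1 model of 6 groups, with Benjamini-Hochberg adjustment over all genes tested and a threshold of 0.05. The precision follows from 5 libraries a group and 28996168 to 65882152 counts a library. The script was tested on simulated data. Members and lists were chosen with earlier results of these data known. Named were all members, and of each list up to 4 called genes by adjusted p in Control mice, otherwise the 2 most abundant, besides the nearest profiles. Alternatives used DESeq2 1.42.0, limma 3.58.1 (voom), other scaling, no filter, other sample sets, a replicate block and, for stress comparisons, a marker index as covariate. Male and human data were not analysed here.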

Additional observations from a re-analysis of the deposited data

Results flagged for a closer look

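There were 4 values that stood far from the other 4 libraries of their group by Dixon's test, out of 60 groups of 5 tested, where chance gives about 3. Rgs4 was at 539 CPM in D2 Control replicate 5, above the others at 452 to 469 CPM. Rgs6 was at 20.7 CPM in D1 Control replicate 1 (others 17.2 to 18.1 CPM) and at 7.57 CPM in D2 Resilient replicate 1 (others 10.8 to 11.6 CPM). Rgs7 was at 24.8 CPM in D2 Control replicate 4, below the others at 38.3 to 40.5 CPM.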

How the results depend on the processing

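Directions held: among 5000 member values under 39 alternatives none that was called changed sign, and 198 uncalled values did, the widest of them at 0.26 (log2, absolute) in the reported fit. Counts of members called moved as follows, and the cause was not tested. Shares of all genes called under each alternative are not set beside them, so whether the members moved more than other genes was not tested. In Control mice 0 became 1 with DESeq2, 3 with only the groups compared, 7 with voom, 4 without D2 Susceptible replicates 1 and 2, and 4 without 4 libraries (those, D1 Susceptible replicate 1 and D2 Resilient replicate 5), and 0 to 1 when each library was left out in turn. In Resilient mice 2 became 1 without the count filter, 4 with only the groups compared, 6 with voom, 4 without the 2 libraries and 4 without the 4, and 0 to 3 leaving out 1 library. In Susceptible mice 3 became 1 with only the groups compared and 4 with voom, which lost Rgs12 and Rgs16 and gained Rgs6, Rgs8 and Rgs14, and without the 4 libraries the 3 were Rgs6, Rgs10 and Rgs14. In the class average 7 became 4 without the count filter, 8 with voom (Rgs7 and Rgs8 gained, Rgs2 lost), and 4 to 7 leaving out 1 library. For D1 Resilient against Control voom called 1. For D2 Susceptible against Control and against Resilient, leaving out 1 library gave 0 to 1. Replicate numbers did not pair the libraries: 9 of 75 same-numbered pairs correlated above 0.1 (median -0.02), and 2 of 30 libraries correlated best with their own number. With the replicate block, 1 member was called in Resilient mice and 4 in the class average. Depth did not limit detection of any member, whose lowest count was 18. The spread between pools widens the intervals given, and changes of a size inside them were not excluded.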
